A study of Mus musculus with 2 samples.

Results

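Endothelial leukocyte adhesion molecules are the surface proteins by which vessel walls catch and hold white cells. Of the 33696 genes counted in 2 single-cell libraries of mouse mammary tumor endothelium, 8 were taken by name: Sele, Selp, Glycam1, Ackr1, Icam1, Icam2, Vcam1 and Cd99l2. They were chosen with earlier results of these data known. Each gene was read in 5 classes of cells, set by counts of a few marker genes. Blood endothelial cells (ECs) had at least 5 unique molecular identifiers (UMIs, each standing for 1 captured transcript) of Pecam1, Flt1, Emcn and Kdr and at most 1 of Krt8, Krt18 and Rhox5. Lymphatic cells had at least 3 UMIs of Prox1, Mmrn1 and Reln. The tumor class had at least 3 of Krt8, Krt18 and Rhox5 and none of Pecam1 and Flt1. Fibroblasts had at least 3000 CPM (UMIs of a gene per 1000000 UMIs) of Col3a1. Ptprc+ cells, taken as leukocytes, had a UMI of Ptprc.

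PyMT-M (High-MAC, rich in macrophages) and PyMT-N (Low-MAC, richer in neutrophils) are sublines of the MMTV-PyMT mammary tumor, in which the polyoma middle T oncogene is driven by a mammary tumor virus promoter. Both were grown in the mammary fat pad of female C57BL/6 mice that received the cells at 6 to 8 weeks of age, and no treatment was given. ECs of 3 tumors per subline were enriched with magnetic beads, after CD45+ and Ter119+ cells had been depleted, and sorted as CD31+ CD144+. The tumors were pooled before a 10x 3′ library was made, so each condition had 1 library, the 3 tumors could not be told apart, and no difference between PyMT-M and PyMT-N could be tested.

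Leukocytes leave the blood in steps. E-selectin (Sele) and P-selectin (Selp) on the vessel wall bind glycans on passing leukocytes and let them roll, chemokines held at the surface activate leukocyte integrins, the immunoglobulin-type proteins ICAM-1, ICAM-2 and VCAM-1 then bind those integrins for firm arrest, and junctional proteins such as CD99L2 take part in the passage through the wall. In inflamed tissue the step takes place mainly in postcapillary venules, whose ECs carry ACKR1, an atypical receptor that binds chemokines without signaling through G proteins. GlyCAM-1 is a mucin of the high endothelial venules of lymph nodes, and it is also secreted by milk-producing mammary epithelium.

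Promoters of the 3 members that cytokines are best known to induce and that had a RefSeq entry show how their start regions compare, each given as the 250 bases before and the 50 after the annotated start. Capitals mark matches to 4 patterns, searched on both strands with N for any base: GGAANNTCC, a form of the NF-kB motif, TGANTCA, the AP-1 motif, TATAAA, the TATA box, and GAAANNGAA, an interferon-type motif. Each run is on the plus strand of GRCm38.p6, an older build than the mm39 named for the deposited counts.
Sele, chr1:164047984-164048283: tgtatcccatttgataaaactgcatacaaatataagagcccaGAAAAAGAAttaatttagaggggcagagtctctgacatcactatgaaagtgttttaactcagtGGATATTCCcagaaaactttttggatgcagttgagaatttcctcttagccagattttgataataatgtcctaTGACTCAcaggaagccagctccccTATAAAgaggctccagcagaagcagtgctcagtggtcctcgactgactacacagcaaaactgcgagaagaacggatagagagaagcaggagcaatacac
Selp, chr1:164115014-164115313: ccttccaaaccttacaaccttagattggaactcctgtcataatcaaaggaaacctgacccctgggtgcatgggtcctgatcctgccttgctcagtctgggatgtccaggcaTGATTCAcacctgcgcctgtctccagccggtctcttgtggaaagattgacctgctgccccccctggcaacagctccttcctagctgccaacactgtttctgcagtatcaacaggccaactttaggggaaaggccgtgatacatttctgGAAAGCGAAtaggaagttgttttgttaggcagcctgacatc
Icam1, chr9:21015690-21015989: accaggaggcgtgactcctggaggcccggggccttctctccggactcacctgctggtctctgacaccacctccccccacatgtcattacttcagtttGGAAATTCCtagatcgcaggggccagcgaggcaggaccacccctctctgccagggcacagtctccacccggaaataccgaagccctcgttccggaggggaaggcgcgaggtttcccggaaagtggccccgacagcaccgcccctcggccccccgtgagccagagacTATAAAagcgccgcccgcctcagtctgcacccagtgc
Counted from 1 at the 5′ end, the Sele run matched all 4 patterns, with GAAAAAGAA at base 43, GGATATTCC at base 106, TGACTCA at base 178 and TATAAA at base 202. The Selp run held TGATTCA at base 112 and GAAAGCGAA at base 260, and neither TATAAA nor the NF-kB form. The Icam1 run held GGAAATTCC at base 98 and TATAAA at base 264. With 250 bases before the annotated start, GAAAGCGAA of Selp and TATAAA of Icam1 lie after that start, and the other matches lie before it. All are matches of letters only, and no site was tested. Among 32851 mouse promoters of the same length, 4.26% held GGAANNTCC, 7.81% TGANTCA, 13.6% TATAAA and 8.56% GAAANNGAA. Entries were found for 6 of the 8 members, and those of Ackr1, Glycam1 and Cd99l2 held none of the 4 patterns. Longer patterns had been taken off the list after its matches were seen. A run without a match may therefore still hold a longer form of one of these motifs.

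Barcodes with at least 200 detected genes and at most 10% mitochondrial UMIs were kept, 6719 of 7821 in PyMT-M and 5607 of 6974 in PyMT-N, with medians of 21262 and 18558 UMIs. The libraries shared 20 barcodes, of which 12 were kept in both. Blood ECs were 598 PyMT-M cells (8.90% of those kept) and 1243 PyMT-N cells (22.2%). They expressed all 7 of 7 endothelial markers that the rule did not use (Cdh5, Esam, Tek, Tie1, Egfl7, Cldn5 and Ptprb), at a summed 4894 and 4681 CPM. The tumor class held 4902 and 3306 cells, although all cells had passed the endothelial sort, and 5 epithelial markers (Epcam, Krt19, Cdh1, Krt7 and Krt14) summed to only 3.66 and 1.52 CPM in it, with Krt19 at 0 in PyMT-M. The name tumor is therefore used here for what the Krt8, Krt18 and Rhox5 rule selects. Other classes were 20 and 207 lymphatic cells, 58 and 63 fibroblasts and 488 and 357 Ptprc+ cells, and 721 and 693 cells met no rule. Classes may overlap: 8 and 174 lymphatic and 6 and 58 Ptprc+ cells were also blood ECs. The blood ECs of PyMT-N accordingly carried more lymphatic markers (2325 against 147 CPM, 7 of 7 genes in both) and more leukocyte markers (415 against 56.8 CPM, 7 of 7 genes in both). Platelet (15.0 and 25.1 CPM), pericyte (112 and 130 CPM), erythroid (30.2 and 22.2 CPM) and secretory mammary markers (6.28 and 4.92 CPM) lay within 2-fold of each other. Fibroblast markers (Col1a1, Col1a2, Dcn, Pdgfra and Lum), low in both and with Lum at 0, were more than 2-fold apart, at 34.7 and 16.0 CPM (4 of 5 genes in both), and their part in the levels of Icam1 and Vcam1, which fibroblasts also carried, was not tested. PyMT-M blood ECs were also shallower, with a median of 5195.5 UMIs per cell against 12601, and 209 of them (34.95%) held fewer than 4000 UMIs, against 21 in PyMT-N (1.69%). Lower levels of RNA per cell and fewer expressing cells cannot be told apart in a summed CPM, so shares of cells were also read after each cell was thinned at random to 4000 UMIs. Thinned values are from 1 random draw, and where 4 further draws, added after seeing the data, moved a value that is relied on, the range over all 5 draws is given beside it.

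The first question was whether ECs of the macrophage-rich tumor carried more adhesion molecule RNA. Both selectins, Icam1, Vcam1 and Ackr1 were about 3-fold higher in CPM in PyMT-M blood ECs, whereas Icam2 and Cd99l2 were near equal and Glycam1 was lower. Thus 5 of the 8 members were at least 2-fold higher in PyMT-M, against 4.89% of the 13632 genes compared (those with 20 or more UMIs in both libraries together), and 1 of 8 was at least 2-fold lower, against 10.2% of genes. Over the 8 members the median log2 ratio, PyMT-M against PyMT-N, was 1.59, and over all genes it was -0.04. Because the members were chosen with earlier results of these data known, the contrast with all genes is a description. It gives no independent support for a difference of adhesion genes as a group. All intervals given here are exact 95% intervals (Poisson for CPM and ratios, Clopper-Pearson for shares) and cover counting error only, not the difference between tumors.

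**Figure D1:**
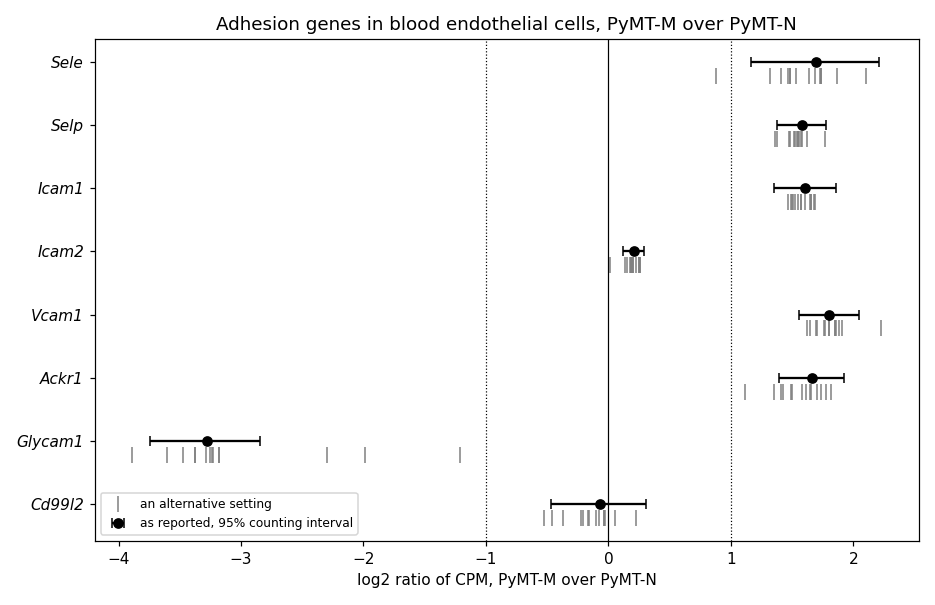
Log2 ratio of CPM, PyMT-M over PyMT-N, for each gene in blood ECs (x axis, 0 means equal, dotted lines at 2-fold either way). Black points are the values as reported with exact 95% counting intervals, and grey ticks are the values under 14 other settings. Sele, Selp, Icam1, Vcam1 and Ackr1 sit between 1.58 and 1.80, Icam2 and Cd99l2 near 0, and Glycam1 at -3.28 with the widest scatter of ticks.

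Selp, the platelet and endothelial selectin stored in granules for rapid release, stood at 101 CPM (90.3 to 112, 337 UMIs) in the blood ECs of PyMT-M against 33.8 CPM (31.1 to 36.6, 584 UMIs) in those of PyMT-N. The log2 ratio was 1.58 (1.38 to 1.77). It was nearly confined to blood ECs in PyMT-M, which held 90.1% of its UMIs. In PyMT-N, 81.9% of its UMIs were in blood ECs, and the Ptprc+ class had 14.0 CPM, 93.6% of it in 5 cells. The tumor class stood at 0.0662 CPM in both libraries.

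Sele, the cytokine-induced selectin, was rarer. It had 52 UMIs in 17 blood ECs of PyMT-M (15.6 CPM, 11.6 to 20.4) and 83 in 34 blood ECs of PyMT-N (4.80 CPM, 3.82 to 5.95). The log2 ratio was 1.70 (1.17 to 2.21). The value leans on few cells: the 5 cells with most Sele held 67.3% of its UMIs for PyMT-M and 42.2% for PyMT-N. Without those 5 in each library Sele stood at 5.13 CPM against 2.79 CPM, a log2 ratio of 0.88, below 2-fold. The tumor class of PyMT-M had a low level spread over 91 cells (1.15 CPM, 0.967 to 1.36), higher than in PyMT-N (0.132 CPM, 0.0635 to 0.243). Being far larger, that class held 61.0% of all Sele UMIs of PyMT-M and blood ECs 22.8%, against 9.26% and 76.9% in PyMT-N. No Sele UMI was found in fibroblasts, which allows up to 5.58 CPM in PyMT-M and 1.96 CPM in PyMT-N.

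Ackr1, the chemokine-binding receptor of venular ECs, was found mainly in blood ECs in both libraries, as Selp was. It reached 56.5 CPM (48.8 to 65.2, 189 UMIs in 40 cells) in PyMT-M and 17.9 CPM (15.9 to 19.98, 309 UMIs in 68 cells) in PyMT-N, so that the log2 ratio was 1.66 (1.39 to 1.93). Blood ECs held 90.0% and 88.5% of all Ackr1 UMIs. In the tumor class there were 3 Ackr1 UMIs among 4902 cells in PyMT-M and 0 among 3306 in PyMT-N, which allows up to 0.0397 CPM. The lymphatic class had 0 UMIs in 20 cells of PyMT-M and 1 in 207 cells of PyMT-N (0.353 CPM). Leaving out cells whose count of detected genes was over 2-fold from their library's median, which left 314 of the 598 PyMT-M cells, gave a log2 ratio of 1.11.

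Icam1, which binds the leukocyte integrins made with Itgb2, stood at 63.1 CPM (54.9 to 72.2) in PyMT-M blood ECs and 20.7 CPM (18.6 to 23.0) in PyMT-N, with a log2 ratio of 1.61 (1.36 to 1.86). It was also counted outside blood ECs, which held 21.6% of its UMIs for PyMT-M and 64.6% for PyMT-N. In PyMT-M it had 67.4 CPM in lymphatic cells (6 UMIs, 24.7 to 147), 35.4 CPM in fibroblasts (21.3 to 55.2), 19.9 CPM in Ptprc+ cells (14.8 to 26.2) and 4.96 CPM in the tumor class (4.57 to 5.37). The order in PyMT-N was different, with Ptprc+ cells first at 26.7 CPM (22.1 to 32.0), then lymphatic cells at 12.3 CPM (8.60 to 17.2), fibroblasts at 1.31 CPM (2 UMIs) and the tumor class at 0.821 CPM (0.629 to 1.05). Blood and lymphatic levels of PyMT-M lay within each other's intervals, and the interval of the 2 fibroblast UMIs of PyMT-N (0.158 to 4.72 CPM) took in that of its tumor class. Fibroblasts (35.4 against 1.31 CPM) and the tumor class (4.96 against 0.821 CPM) were thus higher in PyMT-M for Icam1 too.

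Vcam1, the ligand of the integrin of Itga4 and Itgb1, had the largest ratio of the members between blood ECs. It had 70.3 CPM (61.6 to 79.9, 235 UMIs) in PyMT-M and 20.1 CPM (18.1 to 22.4, 348 UMIs) in PyMT-N, with a log2 ratio of 1.80 (1.56 to 2.05). Its pattern over the other classes turned around between the libraries. In the tumor class Vcam1 was at 1.46 CPM (1.25 to 1.69) in PyMT-M and at 70.4 CPM (68.6 to 72.4) in PyMT-N, where 1652 of 3306 cells (49.97%) had a UMI. Between the libraries, the log2 ratio in that class was -5.60 (-5.82 to -5.38), opposite in sign to that of blood ECs. As a result 77.6% of all Vcam1 UMIs of PyMT-N lay in the tumor class and 5.08% in blood ECs, against 33.0% and 44.1% in PyMT-M. Fibroblasts had 54.0 CPM (36.2 to 77.5) and 29.4 CPM (21.4 to 39.3), and Ptprc+ cells 3.12 CPM (1.35 to 6.16) and 32.8 CPM (27.7 to 38.6). The 213 CPM of PyMT-M lymphatic cells rested on 19 UMIs in 4 cells, and the 14.5 CPM of PyMT-N on 41 UMIs in 15.

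Icam2 is expressed by resting endothelium and, like Icam1, binds leukocyte integrins made with Itgb2. It was at similar levels in both blood EC samples: 431 CPM (409 to 454) in PyMT-M and 374 CPM (365 to 383) in PyMT-N, with a log2 ratio of 0.21 (0.12 to 0.29). With cells that also met the lymphatic, fibroblast or Ptprc+ rule left out, the log2 ratio was 0.011. Its order over classes began alike in both libraries, with blood ECs above lymphatic cells (89.9 CPM, 38.8 to 177, and 147 CPM, 134 to 162) and these above Ptprc+ cells (18.7 CPM, 13.8 to 24.9, and 50.9 CPM, 44.5 to 58.0). The tumor class had 5.33 CPM in PyMT-M and 0.662 CPM in PyMT-N. Fibroblasts had 0 UMIs in 58 cells of PyMT-M, which allows up to 5.58 CPM, and 5 UMIs in PyMT-N, all in 1 cell.

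Cd99l2, which takes part in leukocyte passage through endothelial junctions, showed no tie to the endothelium. Blood ECs had 20.04 CPM (15.5 to 25.5) and 21.1 CPM (19.0 to 23.3), a log2 ratio of -0.07 (-0.47 to 0.31). The tumor class was higher in both libraries, at 34.5 CPM (33.5 to 35.6) and 50.6 CPM (49.0 to 52.2), and held 88.6% and 75.1% of the UMIs. Fibroblasts had 33.5 CPM (19.9 to 53.0) and 41.2 CPM (31.6 to 52.7), lymphatic cells 33.7 CPM (3 UMIs) and 21.5 CPM (16.5 to 27.6), and Ptprc+ cells 25.4 CPM (19.6 to 32.4) and 16.5 CPM (12.9 to 20.8). In PyMT-N the intervals of blood ECs, lymphatic cells and Ptprc+ cells overlapped.

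Among cells that met the blood EC rule, Glycam1 was the only member at least 2-fold lower in PyMT-M, and single cells set its value. Blood ECs had 13.2 CPM (44 UMIs in 4 cells) in PyMT-M and 128 CPM (2205 UMIs in 26 cells) in PyMT-N, with a log2 ratio of -3.28 (-3.74 to -2.85). A single PyMT-N cell held 1938 of the 2205 UMIs (87.9%), which was part of a total of 22482 UMIs. The same cell had 24 UMIs of Ackr1, 6 of Selp, 2 of Chst4, a sulfotransferase of high endothelial venules, and 350 of Ccl21a, a chemokine of lymph node stroma and lymphatic endothelium, with 42 of Pecam1 and none of Ptprc or Prox1. Without the top cell of each library Glycam1 stood at 3.89 CPM against 15.5 CPM, a log2 ratio of -1.99. In PyMT-M most Glycam1 lay elsewhere: 440 of its 539 UMIs (81.6%) were in cells that met no class rule, against 9 of 2228 in PyMT-N. The 5 such cells of PyMT-M with at least 3 Glycam1 UMIs held 23 UMIs of the 7 endothelial markers (1355 CPM) and 17 of the lymphatic markers (1001 CPM). They held none of the milk protein genes Csn2, Csn3, Wap and Lalba. These 5 cells are not in the blood EC ratio, and no looser rule was run. The lower level of PyMT-M therefore holds only for cells that met the rule and depends on where such cells are placed. Lymphatic cells had 618 CPM in PyMT-M (55 UMIs in 2 cells) and 24.3 CPM in PyMT-N (69 UMIs in 4 cells). No Glycam1 UMI was found in fibroblasts of either library or in PyMT-M Ptprc+ cells.

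**Figure D2:**
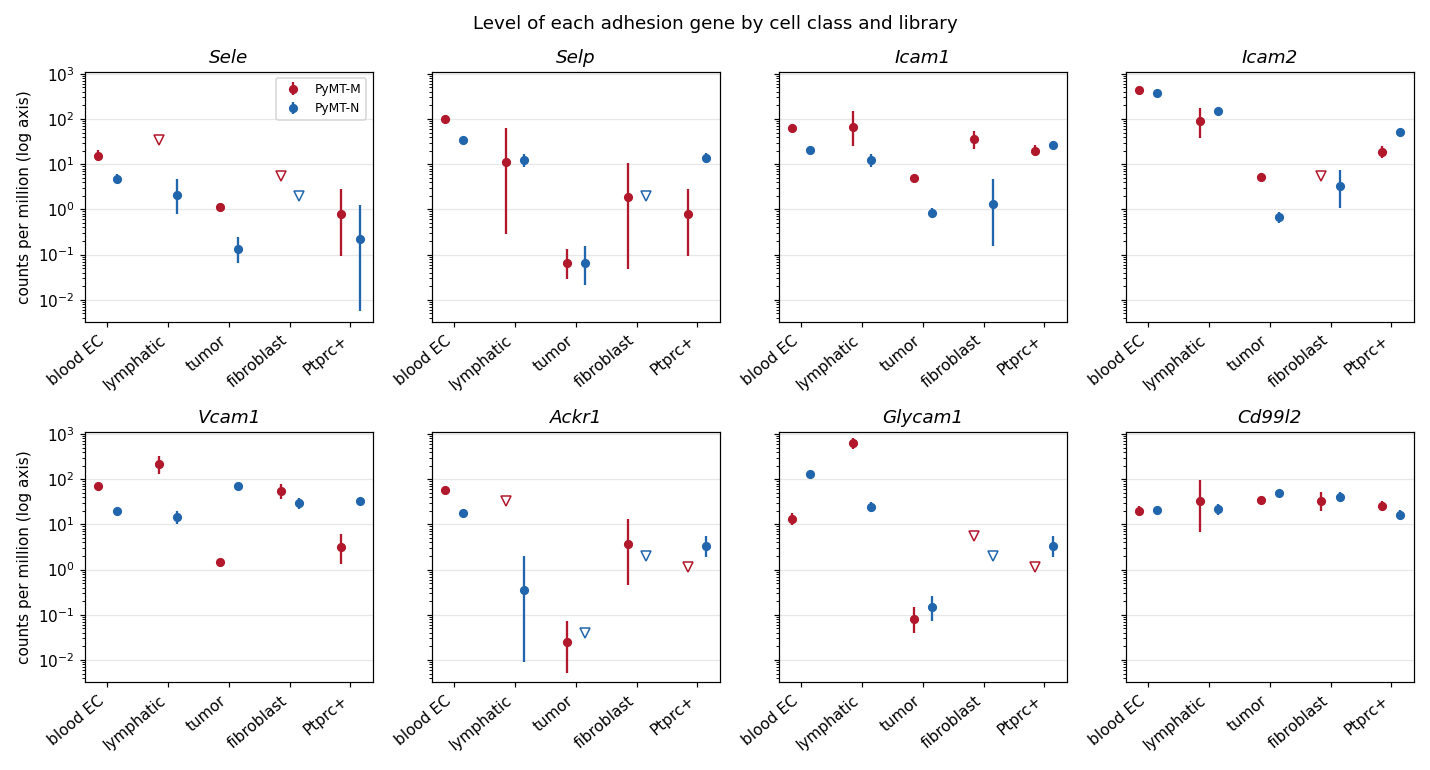
Level of each gene in CPM (log axis) in the 5 cell classes of each library. Filled points are summed counts with exact 95% counting intervals, and open triangles mark classes with 0 UMIs, drawn at the level that 3 counts would give. Selp and Ackr1 stand highest in blood ECs, Cd99l2 runs from 16.5 to 50.6 CPM across the PyMT-N classes, and Vcam1 in the tumor class is 1.46 CPM in PyMT-M and 70.4 CPM in PyMT-N.

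Set against the tumor class of the same library, 7 of the 8 members were at least 2-fold higher in PyMT-M blood ECs, where 30.2% of 15298 genes were, and none was at least 2-fold lower (15.7% of genes). In PyMT-N, 6 of 8 were higher (24.4% of 16182 genes), and Vcam1 and Cd99l2 were lower (15.7% of genes). The member on which the libraries differed in direction was Vcam1, with log2 ratios of blood ECs over the tumor class of 5.59 (5.31 to 5.88) and -1.81 (-1.97 to -1.65).

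Shares of cells gave the same directions for Selp, Icam1 and Vcam1. After thinning to 4000 UMIs, which left 389 PyMT-M and 1222 PyMT-N cells, a Selp UMI was found in 14.7% of PyMT-M blood ECs (11.3 to 18.6%) and 6.87% of PyMT-N blood ECs (5.52 to 8.44%). The difference was 7.78 percentage points (4.07 to 11.9). For Vcam1 the shares were 12.6% and 5.97%, with a difference of 6.62 points (3.16 to 10.5), and for Icam1 15.7% and 6.96%, with a difference of 8.72 points (4.92 to 12.95). Over 5 draws these differences ranged from 7.78 to 9.12 points for Selp, 5.45 to 6.94 for Vcam1 and 5.51 to 8.72 for Icam1, and the lowest lower bounds were 4.07, 1.99 and 1.89. Ackr1 was found in 5.40% and 3.68%, a difference of 1.72 points (-0.646 to 4.62), within counting error. At 2000 UMIs, which kept 560 and 1242 cells, the Ackr1 difference was 2.50 points (0.558 to 4.79), outside it. At 4000 UMIs it ranged from 1.11 to 2.38 points over the draws, and the highest of the lower bounds was 0.0038. In thinned tumor class cells, Selp was found in 0.0613% of PyMT-M and 0.0303% of PyMT-N cells. Icam1 was found in 1.86% and 0.333% of them, and Ackr1 in 0.0204% and 0%. Vcam1 was found in 0.674% of thinned tumor class cells in PyMT-M and in 18.0% in PyMT-N. No class of PyMT-N had a Vcam1 share near 0, and the part that free RNA has in the shares of blood ECs was not tested. These tumor class cells had medians of 23715.5 and 20757.5 UMIs before thinning, against 5195.5 and 12601 in blood ECs. Thinning thus took more of any free RNA out of them, so their low shares set no limit on free RNA in blood ECs. Unthinned, Icam1 was found in 6.90% and 1.06% of tumor class cells, Selp in 0.163% and 0.151%, and Ackr1 in 0.0612% and 0%.

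For Sele, Glycam1 and Cd99l2 the shares at 4000 UMIs did not separate the libraries. For Icam2 they did when all thinned blood ECs, those meeting the lymphatic rule among them, were counted. Icam2 was found in 76.1% of thinned PyMT-M and 69.2% of thinned PyMT-N blood ECs, a difference of 6.86 points (1.63 to 11.8). Without thinning the order was the opposite, 76.6% against 90.2%, in cells that were deeper in PyMT-N. The thinned blood ECs also differed in lymphatic cells. In PyMT-N 173 of them (14.2%) met the lymphatic rule, and Icam2 was found in 45.1% of the 173. In PyMT-M 4 of them met that rule. Of the cells with Icam2, 296 of 389 in PyMT-M and 846 of 1222 in PyMT-N, 2 and 78 met the lymphatic rule. An interval for the thinned Icam2 shares without these cells was not computed, so no separation is shown for the remaining cells. In summed CPM the Icam2 log2 ratio was 0.011 with cells of another class left out. Sele was found in 1.54% and 1.39% (difference 0.151 points, -1.13 to 2.03, and up to 1.02 points over 5 draws), Glycam1 in 0.771% and 1.31% (-0.538 points, -1.55 to 1.03) and Cd99l2 in 6.17% and 9.41% (-3.24 points, -6.05 to 0.036). The Cd99l2 difference ranged from -3.24 to -0.062 points over 5 draws. At 2000 UMIs the differences were 1.61 points for Sele (0.291 to 3.33) and 2.17 points for Cd99l2 (0.039 to 4.62), both outside counting error and the latter of the opposite sign. Cd99l2 shares in blood ECs lay below those of the thinned tumor class (13.4% and 19.2%). Unthinned shares were 18.1% and 10.5% for Selp, 17.7% and 13.7% for Vcam1, 18.6% and 17.2% for Icam1, 6.69% and 5.47% for Ackr1, 2.84% and 2.74% for Sele, 0.669% and 2.09% for Glycam1, and 10.5% and 23.7% for Cd99l2.

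How unevenly the RNA was spread over cells also set the members apart. For each gene, its own 5 richest blood ECs were taken. They held 46.0% of Ackr1 UMIs in the PyMT-M library, 36.3% in the other, and 23.4% and 21.2% of those of Selp. For Vcam1 the 5 richest in Vcam1 held 23.4% and 17.2%, and for Icam1 the 5 richest in Icam1 held 20.4% and 11.2%. The 5 richest in Icam2 held 4.30% and 2.17% of its UMIs. Among cells with a UMI, Ackr1 averaged 4.73 and 4.54 UMIs, whereas Cd99l2 averaged 1.06 and 1.24. Leaving out the 5 richest cells kept Selp (78.1 against 26.7 CPM), Icam1 (51.0 against 18.5 CPM), Vcam1 (54.5 against 16.8 CPM) and Ackr1 (30.7 against 11.4 CPM) more than 2-fold higher in PyMT-M.

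**Figure D3:**
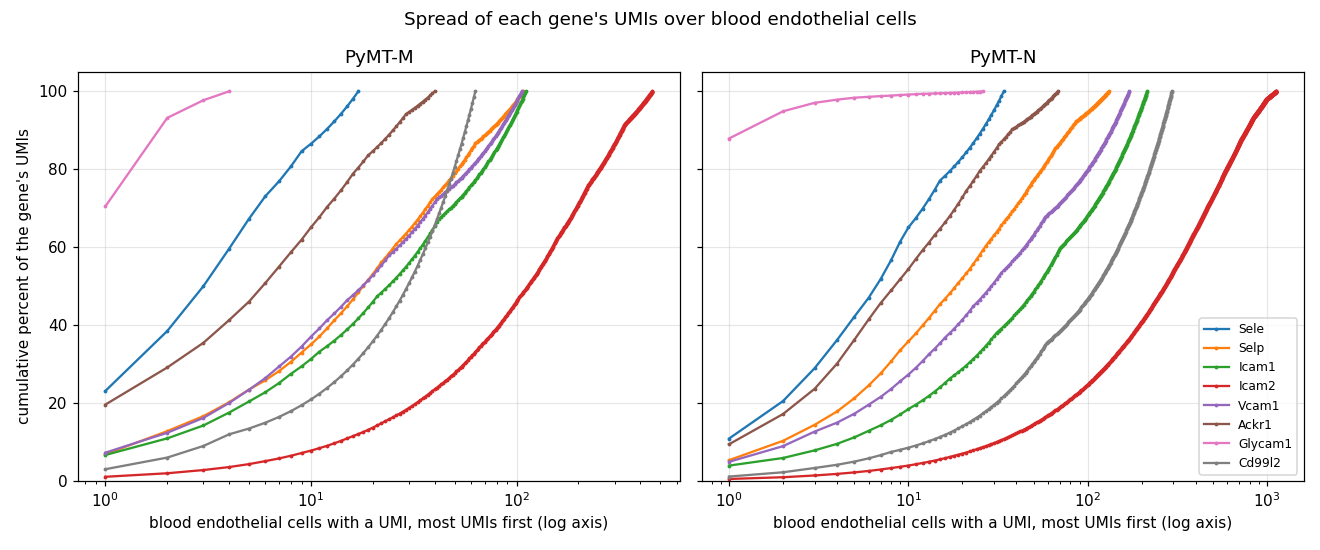
Cumulative percent of each gene's UMIs (y axis) over blood ECs with a UMI of it, ordered from most to fewest UMIs (x axis, log scale), per library. Glycam1 and Sele reach their total within few cells, with 87.9% of PyMT-N Glycam1 in its first cell, whereas Icam2 is spread over 458 PyMT-M and 1121 PyMT-N cells.

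The next question was whether the members were found in the same cells. Selp and Ackr1 were: in thinned cells of PyMT-M, 18 of 21 Ackr1+ cells (85.7%) also had Selp, against 3.08 cells that the separate shares give. In PyMT-N it was 33 of 45 (73.3%), against 3.09. Over 5 draws the pair was seen together 5.62 to 6.12 times as often as its shares give in PyMT-M and 10.7 to 12.3 times in PyMT-N. Sele and Ackr1 shared 5 cells in PyMT-M, against 0.324 from the shares, and 10 cells in PyMT-N, against 0.626, and with so few cells the draws ranged from 8.84 to 15.4 times and from 8.04 to 16.0 times. Of the 10 pairs among Sele, Selp, Icam1, Vcam1 and Ackr1, all were found together more often than the shares give in both libraries, and at least 2 times as often in 6 pairs of PyMT-M and 10 of PyMT-N. The 4 pairs under that mark in PyMT-M were Sele with Vcam1 (1 cell against 0.756), Selp with Vcam1 (10 against 7.18), Vcam1 with Ackr1 (4 against 2.64) and Selp with Icam1 (17 against 8.94). The draws gave 6 to 9 such pairs in PyMT-M, where Sele with Vcam1 fell as low as 0.828 times, and 10 in each draw of PyMT-N. Without thinning the counts were 7 and 10 pairs. Such a ratio cannot exceed the inverse of the larger share, and the shares of these 5 genes were higher in PyMT-M. Sele with Selp was at that limit there, with Selp in 6 of 6 Sele+ cells. The ratios and numbers of pairs therefore do not compare the strength of co-detection between the libraries.

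Outside these 5 genes, Icam2 was found with Selp less often than the shares give, and Cd99l2 only a little more often. Icam2 was found with Selp in 35 cells of PyMT-M, against 43.4 from the shares, and in 40 of PyMT-N, against 58.1. Cd99l2 was found with Selp in 4 cells against 3.52, and in 10 against 7.91. With Ackr1 it was found in 3 cells against 1.30, and in 6 against 4.24. Glycam1, in few cells, was found with Selp in 1 cell of PyMT-M against 0.440, and in 9 of PyMT-N against 1.10. In PyMT-N it was also found more often than the shares give with Ackr1 (6 against 0.589) and Sele (2 against 0.223). The same held there for Icam1 (3 against 1.11) and Vcam1 (2 against 0.956). In PyMT-M it was found with Ackr1 in 1 cell against 0.162, and with Sele in 0 against 0.0463. Co-detection above the shares was thus not limited to the 5 genes. Cells with none of the 5 genes Sele, Selp, Icam1, Vcam1 and Ackr1 were 66.6% of PyMT-M and 83.6% of PyMT-N blood ECs. Cells with exactly 1 were 22.9% and 10.5%, those with 2 were 6.17% and 4.09%, and those with 3 were 3.08% and 1.06%. All 5 were seen in 1 cell of each library. Counts of this kind are descriptions across cells of 1 library, which share its depth and its free RNA. The part that doublets have in them was not tested.

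**Figure D4:**
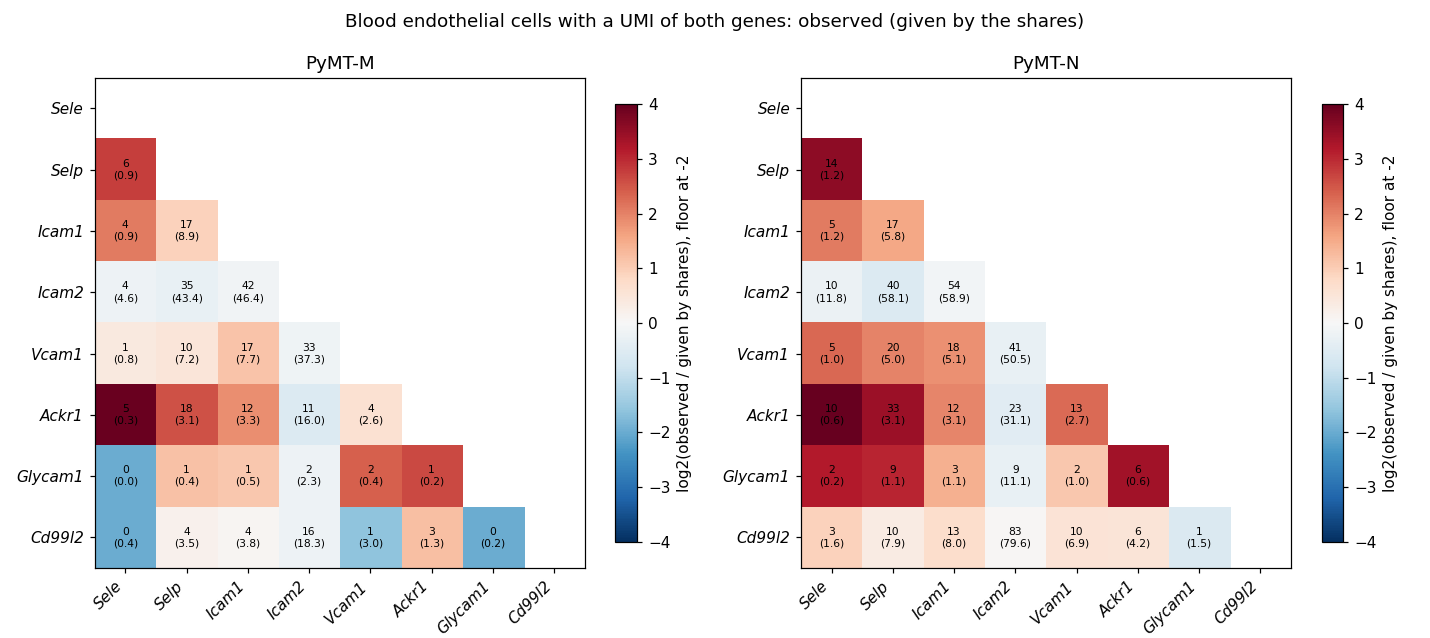
Blood ECs, thinned to 4000 UMIs, with a UMI of both genes of a pair, per library. Each cell of the grid gives the number observed and, in parentheses, the number the separate shares give, and the color is the log2 of their ratio, with 0 cells drawn at -2. Pairs of Sele, Selp, Icam1, Vcam1 and Ackr1 are red, most deeply Sele with Ackr1 (5 and 10 cells), and Icam2 pairs range from near white to pale blue.

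Thinned blood ECs were then read by the vessel markers they carried, a range being the cells with at least 2 UMIs of a marker list, and ranges overlap. Cells with venous markers (Nr2f2, Ephb4, Lrg1 and Vwf) numbered 193 of the PyMT-M cells (49.6%) and 1006 of the PyMT-N cells (82.3%), and those with exactly 1 such UMI, just outside, were 78 and 111. Nearly all RNA of the selectins and Ackr1 lay in venous-marker cells. The ranges overlap, and capillary-marker cells, described below, also held part of it. In PyMT-M they held 15 of 19 thinned Sele, 87 of 106 Ackr1 and 120 of 153 Selp UMIs. In PyMT-N they held 10 of 32, 35 of 102 and 89 of 222. The venous range held 19 of 19 thinned Sele UMIs in PyMT-M and 32 of 32 in PyMT-N. For Ackr1 it held 106 of 106 and 98 of 102, and for Selp 141 of 153 and 218 of 222. Over 5 draws it held at least 90.9% and 92.6% of Sele, 97.7% and 95.8% of Ackr1, and 79.2% and 95.9% of Selp UMIs. In that range Ackr1 was at 137 CPM in PyMT-M and 24.4 CPM in PyMT-N, and Selp at 183 CPM and 54.2 CPM. Sele was at 24.6 CPM (19 UMIs in 6 cells) and 7.95 CPM (32 UMIs in 17 cells). These levels were higher in PyMT-M, but the range took in 49.6% of PyMT-M and 82.3% of PyMT-N cells and is not a like set. The higher levels of PyMT-M were not clear in every range. In cells with interferon and chemokine markers Selp was at 51.7 CPM in both libraries (49.7 to 63.4 and 35.7 to 53.3 CPM over 5 draws). Ackr1 was there at 20.7 and 19.0 CPM (20.5 to 25.7 and 14.3 to 38.3 CPM). In tip-marker cells Selp was at 24.9 and 24.0 CPM (20.3 to 32.4 and 15.6 to 28.9 CPM). Ackr1 was there at 10.2 and 9.84 CPM (3.86 to 10.2 and 9.84 to 13.6 CPM). Among venous-marker cells the lowest PyMT-M value over the draws (122 CPM for Ackr1, 168 CPM for Selp and 24.6 CPM for Sele) was above the highest PyMT-N value (28.6, 54.5 and 8.82 CPM). The draws thin the same cells again, so they do not make the ranges alike. The venous list as a whole was lower in PyMT-M blood ECs (636 against 1160 CPM). Whether levels differ between venous cells of like kind was not tested.

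Icam1, Icam2, Vcam1 and Cd99l2 were also found in cells with fewer than 2 venous UMIs. There Vcam1 was at 58.7 CPM in PyMT-M and 13.9 CPM in PyMT-N, Icam1 at 37.0 CPM and 17.4 CPM, and Icam2 at 490 CPM and 332 CPM. Vcam1 was also read in cells with interferon and chemokine markers (Cxcl9, Cxcl10, Rsad2 and Gbp5). It was at 75.9 CPM (15.2% of 145 cells) in PyMT-M and 44.8 CPM (8.28% of 145 cells) in PyMT-N. All thinned blood ECs had 57.8 and 20.9 CPM. In PyMT-N the marker range was above that level, and in PyMT-M its interval (55.1 to 102) takes that level in. The draws ranged from 63.4 to 89.6 CPM and from 44.8 to 78.9 CPM in that range, which overlap, and the range took up 37.3% of PyMT-M but 11.9% of PyMT-N cells. In cycling cells (Mki67, Top2a and Cdk1) Vcam1 was at 40.5 CPM of 74 cells (20.95 to 70.8) and 41.7 CPM of 84 (22.8 to 69.9). That is above the level of all thinned blood ECs in PyMT-N, and in PyMT-M the interval takes in that level. A separate setting left out blood ECs with at least 3 UMIs of these genes before thinning, which kept 521 and 1118 cells. There the Vcam1 log2 ratio was 2.23.

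Arterial-marker cells (Gja5, Gja4, Hey1, Sox17, Efnb2, Bmx and Sema3g) were low in the venular members. Sele had 0 UMIs in the 77 of PyMT-M and 2 in the 391 of PyMT-N, and so had Ackr1. The 0 UMIs of PyMT-M allow up to 9.74 CPM. All thinned PyMT-M blood ECs had Sele at 12.2 CPM and Ackr1 at 68.1 CPM, so the 0 of Sele does not show a clearly lower level. Selp was found in 9.09% and 1.28% of arterial-marker cells, against 24.4% and 8.05% of venous-marker cells. Tip-marker cells (Apln, Esm1, Kcne3, Angpt2, Cxcr4 and Dll4) held 0 and 5 Sele UMIs, with Ackr1 as given above. Capillary-marker cells (Gpihbp1, Cd300lg, Car4, Rgcc and Cd36), 89.97% and 71.8% of the thinned blood ECs, had Icam2 at 476 and 447 CPM and Ackr1 at 62.1 and 9.97 CPM.

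**Figure D5:**
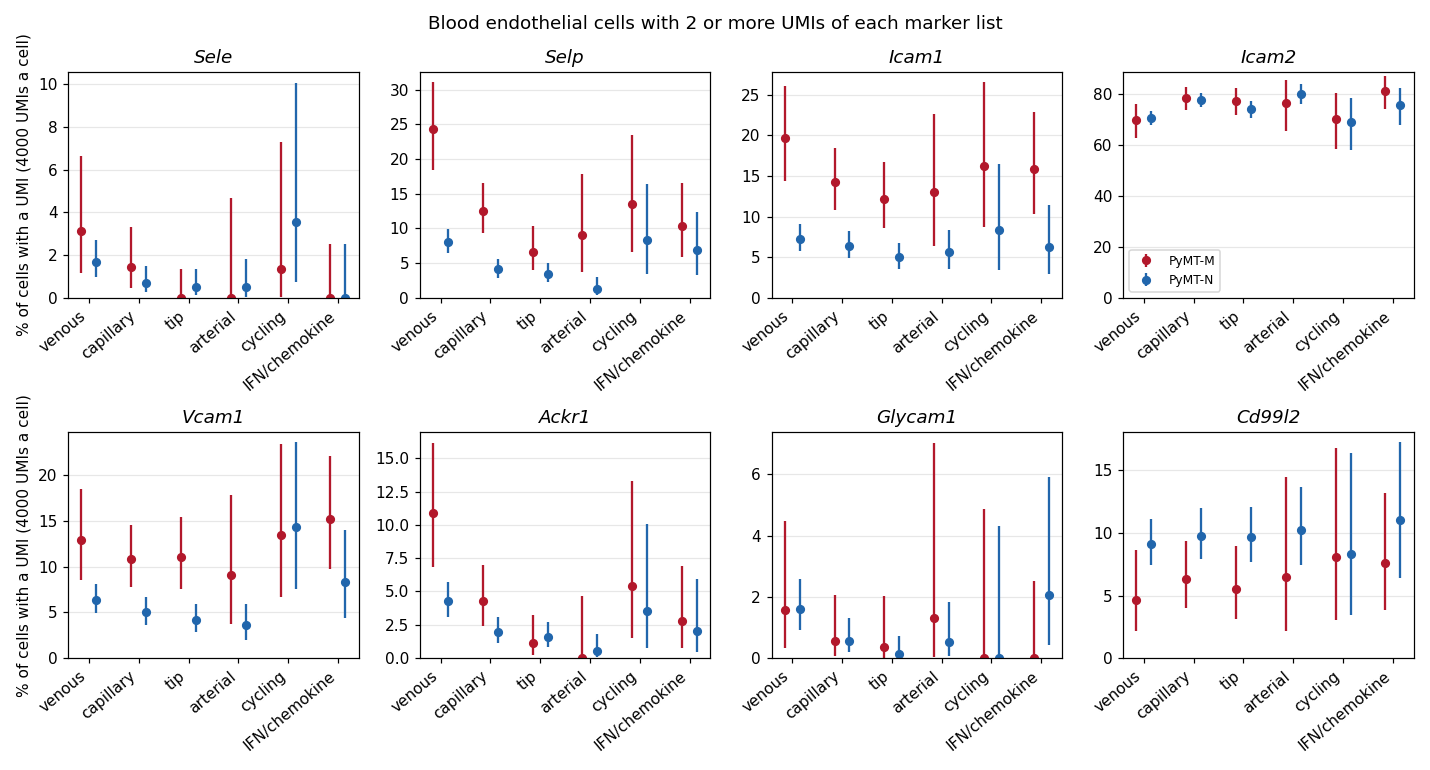
Percent of thinned blood ECs with a UMI of each gene (y axis, a separate scale per gene, from 0) among cells with at least 2 UMIs of each of 6 marker lists, per library, with exact 95% intervals. Ackr1 is found in 10.9% of PyMT-M and 4.27% of PyMT-N venous-marker cells and in 0% and 0.512% of arterial-marker cells, while Icam2 is found in over 60% of cells in every range.

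For each member with a UMI in at least 20 thinned cells of each library, the 5 genes with the highest fold between cells with and without it were listed, by the lower of both libraries. For Selp these were Ackr1 (log2 fold 4.95 in PyMT-M and 4.14 in PyMT-N), Mctp1 (3.17 and 3.26), Il1r1, an interleukin receptor (2.91 and 3.34), Fbln2 and Dnm3, and the 5 were on the list in each of 5 draws. For Ackr1 they were Selp (3.98 and 4.22), Il1r1, Il6st, the shared receptor chain of the IL-6 family (2.71 and 2.81), Fbln2 and Dnm3, so that 3 of the 5 genes were on both lists. Of these, Selp, Il1r1 and Il6st were listed in 4 draws. Only Selp (1.95 and 1.72) was on the list of Icam1 in all 5 draws, and the others in the draw shown were Vcam1 (1.97 and 1.93), Il1r1, Il6st and Cxcl9. Cxcl10, an interferon-induced chemokine (2.06 and 2.52), and Ackr1 (1.82 and 2.30) were on the list of Vcam1 in all 5 draws, ahead of Bgn and Thbs1 in the draw shown. For Icam2 and Cd99l2 no gene was listed in every draw, and 16 and 22 genes appeared in at least 1. In the draw shown Icam2 was led by Igfbp5 (1.52 and 1.65), Prnd, Igfbp3, AA467197 and Gpihbp1, and Cd99l2 by Kitl (0.91 and 0.50), Gda, Prex2, Heg1 and Airn.

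Genes that act beside the members were read from lists chosen for their roles. Among 28 other endothelial adhesion, mucin and transmigration genes, 25 had at least 20 UMIs in blood ECs, 4 were at least 2-fold higher in PyMT-M (4.89% of all genes compared were) and 4 at least 2-fold lower (10.2% were), and the median log2 ratio was -0.09. The highest were Aoc3, vascular adhesion protein 1 (log2 ratio 2.50, on 12 and 11 UMIs), the junctional Jam2 (1.16, 133 against 59.4 CPM) and Cd44, the hyaluronan receptor (1.02), with the nectin-like Pvr at 1.01. The lowest were Fut4, a fucosyltransferase (-1.72), Gcnt1, an enzyme of selectin ligand glycans (-1.17), and Alcam (-1.14), with the scavenger receptor Stab1 at -1.03. The 3 not read as ratios were genes of high endothelial venules. Blood ECs of PyMT-N held 15 Madcam1, 9 Chst4 and 5 Fut7 UMIs (0.868, 0.521 and 0.289 CPM). Those of PyMT-M held none, which allows up to 0.897 CPM for each gene, so no lower level is shown. Madcam1 was found outside that class, with 2, 1, 1 and 2 UMIs in the PyMT-M cells ranked 1, 2, 4 and 5 by Glycam1. The cell ranked 4 met the lymphatic rule and the others no class rule. Those ranked 3, 6, 7 and 8 had none, nor had the PyMT-N cells ranked 1 to 11.

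Of 30 genes upstream of the members, namely cytokine receptors, NF-kB and interferon signaling genes, endothelial transcription factors and sheddases, none was 2-fold apart in either direction, and their median log2 ratio was 0.07. High among them were the interleukin 1 receptor Il1r1 (0.98, 65.2 against 33.0 CPM) and, among the next, Ikbkg (0.42). The lowest were the sheddase Adam10 (-0.59), the venous transcription factor Nr2f2 (-0.51) and Erg (-0.43). In Ptprc+ cells, 12 of 12 leukocyte ligands and receptors of the members were read, of which 1 was at least 2-fold higher in PyMT-M (11% of 12247 genes were) and 1 lower (15.6% of genes). Cd44 was higher (log2 ratio 1.00, 287 against 143 CPM), followed by Itgax (0.79) and Cd99l2 (0.62). Within 2-fold, Selplg, which encodes the P-selectin ligand, had a log2 ratio of -0.84 and Itgb7 of -0.55. CD45+ cells had been depleted, so these Ptprc+ cells are those that the depletion and sort left. The class was unlike in the 2 libraries: 6 of 488 PyMT-M and 58 of 357 PyMT-N cells were also blood ECs. Endothelial markers of the class summed to 49.6 and 379 CPM, and its median depth was 1721.5 and 7581 UMIs. The part that this has in the ratios was not tested.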

How the data were processed

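ECs of PyMT-M and PyMT-N tumors were measured in 1 droplet library each. The values the authors deposited are whole-number UMI counts of each gene in each barcode, without normalization, from Cell Ranger 8.0.0. The submitters' processing notes name the build mm39, and no annotation release is stated in them. The labels name collagenase I for dissociation, the methods collagenase II and dispase II.

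The members, class rules and lists were chosen with earlier results of these data known. UMIs were summed per library and class, scaled to CPM and compared as log2 ratios with exact intervals of a ratio of Poisson counts at 95%. Differences of shares used the square-and-add method. Cells were thinned to 4000 UMIs with a fixed seed, without shallower cells. An earlier draw had been seen before the draw reported was made, and 4 further draws, added after seeing the data, show how far thinned values depend on it. A level of 0 was set against 3 counts over the class, and intervals and floors cover counting error only. Cells are not replicates, so neither p-values nor standard errors were derived. Genes with at least 20 UMIs over both samples were compared and called at 2-fold. No doublet caller was run. Doublets were addressed by leaving out cells of another class, or the deepest 5%, in the log2 ratios and counts of members only. Shares, co-detection, marker ranges and the lists of genes most alike were not rerun without such cells.

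Genes named are the 8 members, the markers, the 3 highest and 3 lowest of each list, and for each member the 5 genes most alike (with 30 or more UMIs in the cells with it in each library, 10 CPM added); Pvr and Stab1 were named after their values were seen. Some genes that this rule names are not reported here. Summed counts of PyMT-M and PyMT-N blood ECs were also simulated as Poisson draws (13632 genes, 200 changed). There 95.95% of intervals held the true value and 99.5% of changed genes had the right direction. The intervals assume that same Poisson spread, so this checks the calculation only. It does not cover the uneven spread of UMIs over cells. Software was matplotlib 3.10.9, pandas 2.3.3, scipy 1.17.1 and numpy 2.4.6 under Python 3.11.15. Promoters came from RefSeq tables of GRCm38.p6.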

Additional observations from a re-analysis of the deposited data

Results flagged for a closer look

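Some contrasts between classes pointed in opposite directions in PyMT-M and PyMT-N. None of these differences was tested, since each condition had 1 library. Vcam1 had log2 ratios of blood ECs over the tumor class of 5.59 in PyMT-M and -1.81 in PyMT-N, over Ptprc+ cells of 4.49 and -0.70, and over lymphatic cells of -1.60 (19 UMIs in the lymphatic class) and 0.48. Icam1 had log2 ratios of blood ECs over Ptprc+ cells of 1.66 and -0.37. Glycam1 had log2 ratios of blood ECs over lymphatic cells of -5.55 and 2.39, of which the PyMT-M value compares 44 UMIs in 4 cells with 55 in 2, and the PyMT-N value rests on the single cell with 1938 UMIs. In PyMT-N, 174 of the 207 lymphatic and 58 of the 357 Ptprc+ cells were also counted as blood ECs.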

How the results depend on the processing

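Of 112 log2 ratios of single members under 14 other settings, 100 stayed within the counting interval of the value reported and 12 moved, with no change of sign among called values. The moved values were 1.11 (gene number within 2-fold of the median) and 1.35 (rule set on thinned cells) for Ackr1, 1.36 (rule set on thinned cells) and 1.38 (mean over cells) for Selp, -0.53 (rule set on thinned cells) for Cd99l2, 0.011 (cells of another class left out) for Icam2 and 2.23 (cycling cells left out) for Vcam1. For Glycam1 they were -3.89 (cells of another class left out) and -2.30 (mean over cells). Leaving out the richest cell of each library, chosen after seeing the data, gave -1.99 for Glycam1, and leaving out the richest 5 gave -1.21 for Glycam1 against the floor of 3 counts, 0.88 for Sele, and a median of the 8 members of 1.15. The number of members at least 2-fold higher was then 4, against 4.89% of all genes with no cell left out. Other settings kept 5 higher and 1 lower, but none of them loosened the blood EC rule, on which the Glycam1 call depends. The share of all genes moved more. Among genes with at least 1 UMI, 26.1% were at least 2-fold higher in PyMT-M and 7.70% lower. Called at 1.5-fold, 11.5% of genes were higher and 17.8% lower. Setting the median of all genes to 0 shifts every log2 ratio by 0.04. Share differences in percentage points depended on depth: at 8000 UMIs they were 22.8 for Vcam1 and -1.66 for Glycam1, at 2000 UMIs 2.17 for Cd99l2, and without thinning 1.35 for Icam1, -13.1 for Cd99l2 and, reversed, -13.6 for Icam2. Under 4 other random draws, added after seeing the data, every share difference stayed within the interval of the draw reported, whereas the pairs of PyMT-M seen together at least 2 times as often as their shares give ranged from 6 to 9 and the lists of genes most alike to Icam1, Icam2, Vcam1, Ackr1 and Cd99l2 changed, while that of Selp held the same 5 genes. With cells of more than 1 class left out the Icam2 log2 ratio of blood ECs over the tumor class in PyMT-N was 9.64. No paired analysis was possible because each condition had 1 library. Other causes of these moves were not tested.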
